A study of Mus musculus with 8 samples.

Results

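The genes described here encode the proteasome and its immune form, in tumors and adjacent liver of the same mice. They were taken by symbol: every gene of the array whose symbol starts with Psma, Psmb, Psmc, Psmd, Psme, Psmf or Psmg followed by a number. That gave 50 of the 19938 genes with a probe of their own, of which 31 encode the standing subunits of the 20S core and the 19S regulatory particle. A further 3, Psmb8, Psmb9 and Psmb10, encode the inducible catalytic subunits and were kept apart. The other members were 2 tissue-restricted subunits, 7 assembly chaperones, 5 activators or inhibitors, and 2 genes, Psmc3ip and Psme3ip1, that share the letters but encode no subunit.

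The proteasome is the protease that degrades proteins tagged with ubiquitin. Its barrel, the 20S core, has outer rings of alpha subunits and inner rings of beta subunits, and some of the beta subunits carry the active sites. The 19S particle caps the barrel, binds and trims ubiquitin chains and unfolds the substrate with a ring of ATPases. In immune cells, and in other cells exposed to interferon-gamma, newly built cores take up Psmb8, Psmb9 and Psmb10 in place of Psmb5, Psmb6 and Psmb7. This immunoproteasome alters the peptides available for display on MHC class I. In hepatocytes at rest the standing subunits predominate.

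Liver expression came from 4 male mice of strain C57BL/6J, called M24, M48, M50 and M60. Each animal was given an AAV vector (adeno-associated virus) when 2 to 3 months old and was necropsied after another 18 months, so the tumor and the adjacent liver both come from vector-treated animals. What the vector carried is not given in the sources used here, and no uninjected mice were analysed. Each mouse gave 1 piece labelled hepatocellular carcinoma and 1 piece of adjacent liver labelled normal, each hybridised to 1 array. The groups therefore hold 4 samples each, paired by mouse, and this number limits the precision. Where 4 values stand together, they are those of M24, M48, M50 and M60, in that order. Levels and differences below are on the log2 scale, a difference is tumor minus adjacent, and the words rose and fell are kept for genes whose adjusted p in limma (Benjamini-Hochberg over all tested genes) was under 0.05. Levels of different probes are not compared, because each probe has its own affinity.

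The array medians lay between 4.89 and 5.01, and 11963 genes passed the filter on low values. Tumors differed widely from adjacent liver: 31.9% of tested genes were called, 16.3% as risen and 15.7% as fallen. The labels held against tissue markers. Gpc3 and Afp, oncofetal genes of liver cancer, rose by 3.48 and 2.13, and the level of albumin (Alb) differed by 0.11 between the groups with an adjusted p of 0.443. Of 7 hepatocyte markers 1 rose (Apoa1) and 2 fell (Tat and Cps1). The call of Apoa1 was lost after median centring and without M24, M48 or M60 (adjusted p up to 0.129), and the other 2 held in all 11 alternative settings. The 7 levels summed to between 92.2 and 93.2 in adjacent liver and to between 89.9 and 91.5 in tumors. Tat and Cps1 differed by -1.01 and -0.84, and the others by between -0.25 (Serpina1c) and 0.32 (Apoa1). The lower sum is thus mostly that of Tat and Cps1. In pieces of whole tissue, fewer cells of a type and less RNA per cell cannot be told apart.

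Of the 50 members, 47 passed the filter on low values, 7 rose and 2 fell. As shares of those tested these are 14.9% and 4.26%, against 16.3% and 15.7% over all genes. The genes that rose were Psmb8, Psmb9, Psmd8, Psmd14, Psmd10, Psmg2 and Psmf1, and the genes that fell were Psmd9 and Psme4. Tumor and adjacent values did not overlap for 7 members higher in tumors and for 5 lower in tumors, against 14.9% and 15.6% of all genes tested. The median difference over the tested members was -0.0034, beside 0.0008 over all tested genes. The plot of all members shows a narrow column of standing subunits and a small number of genes standing away from it.

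**Figure D1:**
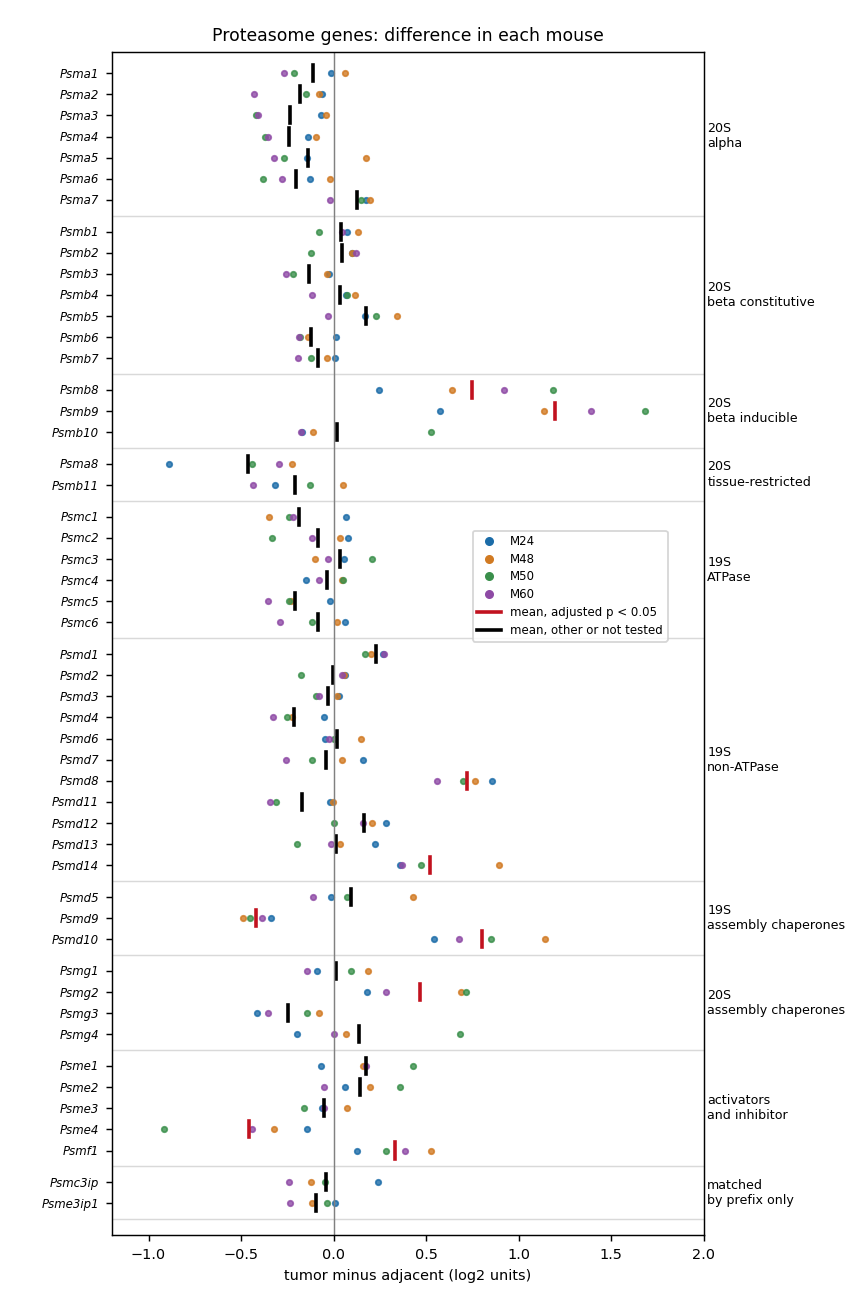
Difference between tumor and adjacent liver (log2 units, horizontal axis) for each of the 50 proteasome genes, grouped by role. Each point is 1 mouse and each bar the mean of 4 mice, red where the adjusted p was under 0.05. Most genes lie close to 0, and Psmb9, with a mean of 1.20, lies farthest from it.

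Among the inducible catalytic subunits, Psmb9 and Psmb8 rose and were higher in the tumor of all 4 mice, whereas the mean difference of Psmb10 was near 0. Psmb9 (probe 10450145, chromosome 17) encodes the immune counterpart of Psmb6. In adjacent liver its level was 8.35, 7.30, 7.68 and 7.67. In the tumors it was 8.93, 8.44, 9.36 and 9.06. Every tumor value lay above every adjacent value, although the tumor of M48 exceeded the adjacent liver of M24 by little. The mean difference was 1.20 (SE 0.175, n = 4 pairs), or 2.29-fold, with an adjusted p of 0.00361. It was called in all 11 alternative settings, with adjusted p-values from 0.00298 to 0.0178.

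Psmb8 (probe 10444258, chromosome 17) encodes the immune counterpart of Psmb5, the subunit with the chymotrypsin-like activity. Its adjacent levels were 8.42, 8.06, 7.98 and 8.07, and its tumor levels were 8.66, 8.70, 9.17 and 8.996. The groups did not overlap, and M24, with the highest adjacent level, had the smallest rise. Tumors exceeded adjacent liver by 0.75 on average (SE 0.155), or 1.68-fold, with an adjusted p of 0.0122. Over the 11 alternatives the adjusted p ranged from 0.00463 to 0.0533. The call was lost in 1 of them, without M60, where the difference was 0.69.

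Psmb10 (probe 10581378, chromosome 8) encodes the immune counterpart of Psmb7. Its adjacent levels were 8.32, 8.23, 8.01 and 8.25, and its tumor levels were 8.15, 8.12, 8.54 and 8.08. The tumor of M50 stood above all other samples, and in the other 3 mice the tumor was the lower sample of the pair. The pairs differed by 0.02 on average, with a 95% interval from -0.31 to 0.35 and an adjusted p of 0.932. It was -0.04 after centring each array on its median and -0.15 without M50. The interval does not reach the mean differences of Psmb8 or Psmb9.

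**Figure D2:**
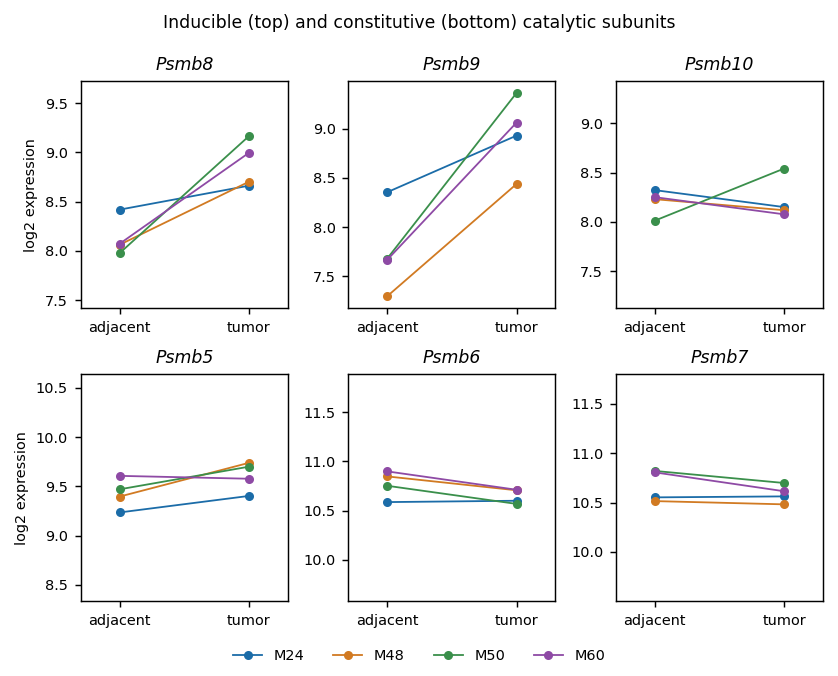
Log2 expression of the inducible catalytic subunits (top row) above their standing counterparts (bottom row) in adjacent liver and tumor. Each line joins the samples of 1 mouse, and all panels span the same range of log2 units. Psmb8 and Psmb9 are higher in the tumor of all 4 mice, while Psmb10 is higher in the tumor of M50 and lower in the other 3.

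The standing catalytic subunits gave smaller differences, and none of the 3 was called. Psmb5 had levels of 9.24, 9.40, 9.47 and 9.61 in adjacent liver and 9.40, 9.74, 9.70 and 9.58 in tumors, a mean difference of 0.18 (95% interval -0.04 to 0.39, adjusted p 0.179). It was higher in the tumor of M24, M48 and M50. Psmb6, with the caspase-like activity, had levels of 10.59, 10.85, 10.75 and 10.90 in adjacent liver and 10.60, 10.71, 10.57 and 10.71 in tumors. Its mean difference was -0.12 (95% interval -0.31 to 0.07, adjusted p 0.282). Psmb7, with the trypsin-like activity, had levels of 10.55, 10.51, 10.82 and 10.81 in adjacent liver and 10.56, 10.48, 10.70 and 10.61 in tumors. Its mean difference was -0.08 (95% interval -0.27 to 0.10, adjusted p 0.462). The groups overlapped for all 3 genes.

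Each inducible subunit was then set against the subunit it replaces, as the change of the first minus the change of the second within a mouse. A change, unlike a level, leaves out a constant offset between probes. Whether 2 probes at different levels respond alike to the same change was not tested. For Psmb9 against Psmb6 the value was 0.561, 1.28, 1.87 and 1.58, with a mean of 1.32 ± 0.561 (SD, n = 4). For Psmb8 against Psmb5 it was 0.0758, 0.297, 0.958 and 0.953, with a mean of 0.571 ± 0.453. Both were above 0 in all 4 mice, which gives the smallest p that a two-sided exact permutation test of signs can reach with 4 pairs, a value still above 0.05. For Psmb10 against Psmb7 the value was -0.182, -0.0788, 0.652 and 0.0175, with a mean of 0.102 ± 0.375 and an exact p of 0.875. Without M50 that mean was -0.0811. In each of the 3 pairs M50 had the highest value.

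Psmb9 and Psmb8 lie in the MHC class II region of chromosome 17 with Tap1 between them and Tap2 next to Psmb8, the genes of the TAP peptide transporter, whereas Psmb10 lies on chromosome 8. Psmb9 and Tap1 start 225 bases apart and are read in opposite directions, so that they share the stretch between their starts. That stretch and the 60-base pieces of the Psmb8, Psmb5 and Psmb6 promoters that hold a searched motif are printed below, because the first 2 belong to the genes that rose together and the last 2 to their standing counterparts. They are RefSeq sequences of build GRCm38.p6, read 5′ to 3′ on the strand of the gene named first: chr17:34187331-34187555 (minus strand), chr17:34198075-34198134 (plus), chr14:54618001-54618060 (minus) and chr11:70525297-70525356 (plus). Capitals mark a GC box (GGGCGG) and, on the opposite strand, a CCAAT box in the first, a GAS motif (TTCNNNGAA, named for the interferon-gamma activated sequence) in the second, and the core of an antioxidant response element (TGACNNNGC, bound by NRF2 and NRF1) in the last 2.
Psmb9 to Tap1: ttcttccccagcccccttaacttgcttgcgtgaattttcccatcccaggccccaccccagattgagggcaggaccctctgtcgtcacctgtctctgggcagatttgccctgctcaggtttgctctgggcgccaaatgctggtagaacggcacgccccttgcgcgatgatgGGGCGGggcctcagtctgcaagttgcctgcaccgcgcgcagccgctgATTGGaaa
Psmb8: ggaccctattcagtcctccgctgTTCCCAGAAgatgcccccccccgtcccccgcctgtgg
Psmb5: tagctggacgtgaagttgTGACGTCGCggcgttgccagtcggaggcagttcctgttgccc
Psmb6: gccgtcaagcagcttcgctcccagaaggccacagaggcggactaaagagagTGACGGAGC

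The GC box of Psmb9 begins 55 bases and its CCAAT box 8 bases before the start of the gene. The GAS letters of Psmb8 begin 97 bases before its start, and the antioxidant letters begin 47 bases before the start of Psmb5 and 9 before that of Psmb6. Such matches are descriptions of the letters, not binding sites. Windows of 300 bases (250 before and 50 after the start) were found for 42 of the 50 members, 46 windows in all, and both strands were searched. Psmg2, which rose, had no window and was not searched. GAS letters were in 6.52% of these windows, from Psmb8, Psmd2 and Psmg1, and in 8.3% of all 32851 windows. Antioxidant letters were in 13% and 12.4%. The ISRE letters (GAAANNGAAA), named for the interferon-stimulated response element, were in 10.9% and 3.44%, from Psmb3, Psmd4, Psmd9, Psme1 and Psmg4. Of those 5 Psmd9 fell and the others were not called, where 14.9% of all tested members rose and 4.26% fell. With 5 genes no relation to these shares can be read. Of the genes with GAS letters Psmb8 rose, and Psmd2 and Psmg1 were not called. GC boxes were in 54.3% and 35.7%, and CCAAT boxes in 34.8% and 37.4%. In Psmd9 an antioxidant match overlapped a GC box.

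The genes around Psmb9 and Psmb8 were looked at after their values had been seen. In order along chromosome 17, H2-DMa rose by 0.89, Psmb9 by 1.20, Tap1 by 1.05, Psmb8 by 0.75 and Tap2 by 0.78, followed beyond H2-Ob by H2-Ab1 (1.46), H2-Aa (1.47) and H2-Eb1 (1.51). The H2 genes that rose encode MHC class II chains and, in H2-DMa, a helper of class II peptide loading. The call of H2-DMa was lost without M50 (adjusted p 0.0501). H2-DMb2 and H2-DMb1, which lie between H2-DMa and Psmb9, had no value. The run was not unbroken: H2-Ob differed by 0.07 (adjusted p 0.858). Outward from H2-DMa none was called: Brd2 differed by -0.24 (adjusted p 0.0635), H2-Oa by 0.38 (0.135) and Col11a2 by -0.01 (0.974). Beyond H2-Eb1, H2-Eb2 and Btnl2 were below the filter and not tested. Tap1 had levels of 7.46, 7.21, 7.19 and 7.15 in adjacent liver and 8.18, 7.82, 8.75 and 8.46 in tumors, without overlap. Its difference was 0.71, 0.61, 1.56 and 1.31, where the difference of Psmb9 was 0.57, 1.14, 1.68 and 1.39. Both genes thus had their largest differences in M50 and M60.

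**Figure D3:**
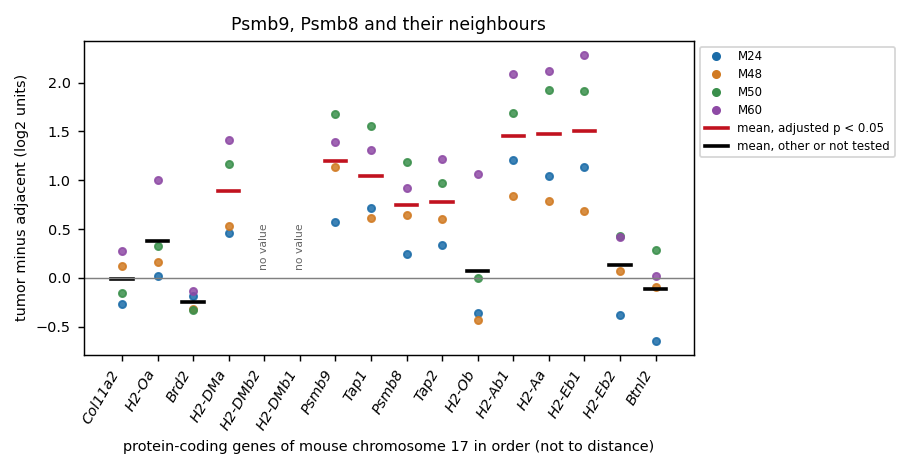
Difference between tumor and adjacent liver (log2 units, vertical axis) for Psmb9, Psmb8 and neighbouring genes in their order on chromosome 17, not to distance. Points are mice and bars are means of 4 mice, red where the adjusted p was under 0.05. H2-DMb2 and H2-DMb1 had no value. Psmb9, Tap1, Psmb8 and Tap2 lie above 0 in every mouse. H2-Ob, between Tap2 and H2-Ab1, has a black bar, as have Brd2, H2-Oa and Col11a2 outward from H2-DMa.

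Of 19 listed genes of antigen processing and of the interferon response 14 were measured, Tap1 and Tap2 among them. Of these 5 rose (35.7%, against 16.3% of all genes) and none fell in limma, with a median difference of 0.31. At an unadjusted p under 0.05, 7 were higher and none lower, against 2534 and 2556 of all 11963 tested genes. Without Tap1 and Tap2, 3 of 12 rose and the median was 0.19. The chemokine genes Cxcl9 and Cxcl10, which interferon-gamma induces, rose by 2.48 (SE 0.345, adjusted p 0.00307) and 1.61 (SE 0.219, adjusted p 0.00289). Iigp1, an interferon-inducible GTPase, rose by 0.68 with an adjusted p of 0.0473, a call kept in 4 of its 11 alternatives and lost, among others, without M24, M48 or M60. B2m, the light chain of MHC class I, differed by 0.02 (adjusted p 0.893), Irf1, a transcription factor of the interferon response, by 0.11 (0.634), and Nlrc5, an activator of class I genes, by -0.02 (0.883). Tapbp, which bridges TAP and class I, differed by 0.27 (0.0821). The Nlrc5 value is that of 1 of its 19 probes and the Irf1 value that of 1 of 2, each with the highest mean.

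Markers of other cell types than hepatocytes also differed between the groups. Of 11 measured myeloid and antigen-presenting markers 5 rose (45.5%, against 16.3% of all genes): Itgax (1.21), Cd68 (0.98), Cd74 (1.43), H2-Ab1 and H2-Aa. The Kupffer cell gene Clec4f fell by 0.65, 1 of 11 (9.09%, against 15.7% of all genes). Of the 11, 8 were higher and 2 lower at an unadjusted p under 0.05, against 2534 and 2556 of all 11963 tested genes. H2-Ab1 and H2-Aa are the neighbours of Psmb8 given above, and without them 3 of 9 rose and 1 fell. The call of Cd68 was lost in 5 of 11 alternatives, among them those without M48, M50 or M60 (adjusted p up to 0.196, and a difference of 0.62 without M50). That of Clec4f was lost in 4 of 11, among them those without M24, M48 or M50 (up to 0.270). The levels of all 11 myeloid markers summed to between 78.7 and 94.3 in adjacent liver and between 89.4 and 96.8 in tumors. Of 11 lymphoid and pan-leukocyte markers 5 passed the filter on low values and none was called by limma. At an unadjusted p under 0.05, 4 of the 5 were higher and none lower, against 2534 and 2556 of all 11963 tested genes. These 11 levels summed to between 46.5 and 52.5 in adjacent liver and between 51.2 and 61.7 in tumors. Cd4, Cd79a, Ms4a1, Gzma, Gzmb and Ncr1 lay below the filter. Ptprc, the pan-leukocyte gene, differed by 0.89 (adjusted p 0.0544), namely by 0.16, 0.22, 1.67 and 1.52. Its adjacent levels were 7.24, 7.98, 6.02 and 6.35, where those of Psmb9 were 8.35, 7.30, 7.68 and 7.67. The difference of Psmb9 was 0.57, 1.14, 1.68 and 1.39. Itgax differed by 0.91, 0.86, 1.54 and 1.54, Cd74 by 1.02, 0.66, 1.71 and 2.32, and Cd68 by 0.16, 0.58, 2.07 and 1.11. Other myeloid markers were lower in some mice: Csf1r differed by -0.18, -0.17, 0.59 and 0.63. Clec4f differed by -0.99, -0.95, -0.56 and -0.09, and S100a8 by -0.10, -0.96, -0.34 and -0.15. The median over the 11 myeloid markers was 0.13, 0.41, 0.71 and 1.11. No relation of Psmb9 to these markers was tested.

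Some endothelial and fibroblast genes rose as well. Of 4 endothelial markers 2 rose (50%, against 16.3% of all genes), Pecam1 by 1.02 and Kdr by 0.64. All 4 were higher at an unadjusted p under 0.05, against 2534 of all 11963 tested genes. The levels of these 4 summed to between 28.9 and 29.8 in adjacent liver and between 31.3 and 33.4 in tumors. Of 5 stellate cell and fibroblast markers 2 rose (40%, against 16.3% of all genes), the collagen genes Col1a1 by 1.92 and Col3a1 by 1.94. The other 3 (Dcn, Lrat and Des) had differences from -0.37 to -0.18. These 5 levels summed to between 35.7 and 40.4 in adjacent liver and between 40.6 and 42.5 in tumors. The 4 calls held in all 11 alternatives. Which cells carried the Psmb8 and Psmb9 transcripts was not tested, nor was the part of immune, endothelial or fibroblast cells in their rise.

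Most of the standing core lay near 0. Of its 31 genes 2 rose, Psmd8 and Psmd14 (6.45%, against 16.3% of all genes), and none fell in limma (against 15.7%). At an unadjusted p under 0.05, 3 were higher (Psmd8, Psmd14 and Psmd1) and 3 lower (Psma4, Psmc5 and Psmd4). Over all 11963 tested genes, 2534 were higher and 2556 lower at that level. The 95% intervals of 29 of the 31 genes lay within a 1.5-fold change in either direction, against 7417 of all 11963 tested genes. Those 29 were the uncalled genes, and their intervals ran from -0.48 to 0.41. The median difference over the 31 genes was 0.06, 0.04, -0.12 and -0.12. Thus M50 and M60, the mice with the largest Psmb9 and Psmb8 differences, had the lower medians here. With 4 mice no relation between these values was tested.

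Among the 7 alpha subunits, which form the outer rings and the gate of the barrel, 6 had a mean difference below 0, and none was called by limma; 1 had an unadjusted p under 0.05. That was Psma4, at -0.24 (95% interval -0.45 to -0.03, adjusted p 0.0792). Psma4 and Psma3 (-0.23, adjusted p 0.1252) were the alpha genes whose tumor values all lay below the adjacent values. The others were Psma6 (-0.20), Psma2 (-0.18), Psma5 (-0.14), Psma1 (-0.11) and Psma7 (0.13). The alpha median was -0.18 over the group, and by mouse it was -0.07, -0.02, -0.27 and -0.32. For Psma3 all 3 probes gave nearly the same difference, from -0.25 to -0.23.

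The 7 standing beta subunits differed by between -0.13 (Psmb3) and 0.18 (Psmb5), with none called in either direction and none at an unadjusted p under 0.05. Of those without an active site, Psmb1 differed by 0.04, Psmb2 by 0.05 and Psmb4 by 0.04. All 7 overlapped between the groups.

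The 6 ATPases of the 19S base, which unfold substrates and open the gate, gave no call either. They differed by between -0.21 (Psmc5, adjusted p 0.110, the 1 gene with an unadjusted p under 0.05) and 0.03 (Psmc3). Between these lay Psmc1 (-0.18), Psmc2 (-0.08), Psmc6 (-0.08) and Psmc4 (-0.03). A second Psmc1 probe gave -0.31. All 6 overlapped.

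Of 11 further 19S subunits 2 rose (18.2%, against 16.3% of all genes). Psmd8 (probe 10561679, chromosome 7), a subunit of the lid that is needed for the lid to join the base, had levels of 9.42, 9.50, 9.51 and 9.60 in adjacent liver. In the tumors it had 10.28, 10.27, 10.21 and 10.15. Both groups were tight and lay far apart. The mean difference was 0.72 (SE 0.0837, n = 4 pairs), or 1.65-fold, with an adjusted p of 0.00172, the lowest of all members. Psmd14 (probe 10472300, chromosome 2), the metalloprotease that cuts ubiquitin chains from the substrate as it enters, had levels of 8.92, 8.53, 9.06 and 9.14 in adjacent liver and 9.28, 9.42, 9.53 and 9.51 in tumors. The groups did not overlap, and M48 started lowest and differed most. The mean difference was 0.52 (SE 0.111), or 1.44-fold, with an adjusted p of 0.0136. Both genes were called in all 11 alternatives.

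The other 9 were not called. Psmd1, a scaffold of the 19S base, was higher in the tumor of all 4 mice, by 0.26, 0.20, 0.17 and 0.27, with a mean of 0.23 and an adjusted p of 0.0588. After quantile normalization it was 0.28 with an adjusted p of 0.0310. Psmd4, a ubiquitin receptor, differed by -0.21 (adjusted p 0.0972) and Psmd11, a lid subunit, by -0.17. Psmd2, which docks ubiquitin-like shuttle proteins, gave values within 0.01 of 0 with both of its probes. Psmd12 differed by 0.16, Psmd6 by 0.02, Psmd13 by 0.01, Psmd3 by -0.03 and Psmd7, the partner of Psmd14 in the lid, by -0.04.

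The chaperones that build the 19S base split. Psmd10 (probe 10607004, chromosome X) encodes gankyrin, which holds an ATPase during assembly and is also known as an oncoprotein of liver cancer that binds RB1 and CDK4. Its levels were 7.998, 7.85, 7.91 and 8.09 in adjacent liver, and 8.54, 8.99, 8.76 and 8.77 in tumors. All tumor values lay above all adjacent values. The mean difference was 0.80 (SE 0.115), or 1.75-fold, with an adjusted p of 0.00337. Psmd9 (probe 10525506, chromosome 5), another chaperone of the ATPase ring, went the other way. Its levels were 8.36, 8.42, 8.26 and 8.38 in adjacent liver and 8.02, 7.93, 7.80 and 7.99 in tumors, again without overlap. It fell by 0.42 (SE 0.0782), or 1.34-fold, with an adjusted p of 0.00869. Both calls held in all 11 alternatives. The third of these chaperones, Psmd5, differed by 0.09 (95% interval -0.17 to 0.35, adjusted p 0.555).

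Of the chaperones that build the 20S core, Psmg2 (probe 10456414, chromosome 18), which pairs with Psmg1 to form the alpha ring, rose. Its levels were 7.17, 6.79, 7.11 and 7.12 in adjacent liver and 7.35, 7.48, 7.82 and 7.40 in tumors, without overlap. M48 was the lowest adjacent sample and M50 the highest tumor. On average the pairs differed by 0.47 (SE 0.122), or 1.38-fold, with an adjusted p of 0.0281. The call was lost without M48 (0.0792), without M50 (0.104) and without M60 (0.0564). Its partner Psmg1 differed by 0.01 (95% interval -0.20 to 0.23, adjusted p 0.932). The second pair gave -0.25 for Psmg3 (adjusted p 0.109, all tumors below all adjacent samples) and 0.14 for Psmg4 (adjusted p 0.536). Psmg4 had adjacent levels of 5.82, 5.81, 5.91 and 5.81 and tumor levels of 5.63, 5.87, 6.59 and 5.81. The tumor of M50 stood above the rest, and after Psmb9 and Psmb8 this was the member whose difference varied most between mice (SD 0.380).

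The activators that replace the 19S cap did not follow Psmb8 and Psmb9 past the threshold. Psme1 and Psme2 encode the 2 chains of PA28, a cap that interferon-gamma induces and that favours the release of antigenic peptides. Psme1 had levels of 9.69, 9.56, 9.69 and 9.58 in adjacent liver and 9.63, 9.72, 10.12 and 9.76 in tumors, a mean difference of 0.17 (95% interval -0.06 to 0.41, adjusted p 0.231). Psme2 had levels of 9.44, 9.52, 9.59 and 9.59 in adjacent liver and 9.50, 9.72, 9.95 and 9.54 in tumors, a mean difference of 0.14 (95% interval -0.08 to 0.36, adjusted p 0.296). Both were highest in the tumor of M50, and both overlapped between the groups. A probe shared by Psme2 and Psme2b was left out. Psme3, which encodes the nuclear PA28 form, differed by -0.05.

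Psme4 (probe 10374934, chromosome 11) encodes PA200, an activator found mainly in the nucleus. Its levels were 9.49, 9.68, 9.87 and 9.69 in adjacent liver and 9.34, 9.36, 8.95 and 9.25 in tumors, without overlap, and the tumor of M50 was the lowest sample. It fell by 0.46 (SE 0.133), or 1.37-fold, with an adjusted p of 0.0401. The call was lost without M48 (0.0612), without M50 (0.0895, where it fell by 0.30) and without M60 (0.116), and with no filter on low values (0.0547). Psmf1 (probe 10488575, chromosome 2) encodes PI31, which binds the 20S core and was first described as an inhibitor. Its levels were 7.68, 7.40, 7.58 and 7.57 in adjacent liver and 7.81, 7.93, 7.86 and 7.95 in tumors, without overlap. It rose by 0.33 (SE 0.0957), or 1.26-fold, with an adjusted p of 0.0392. That call was lost with each mouse left out in turn: M24 (0.0502), M48 (0.106), M50 (0.0945) and M60 (0.141). It was also lost after median centring (0.0780) and with no filter on low values (0.0590).

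**Figure D4:**
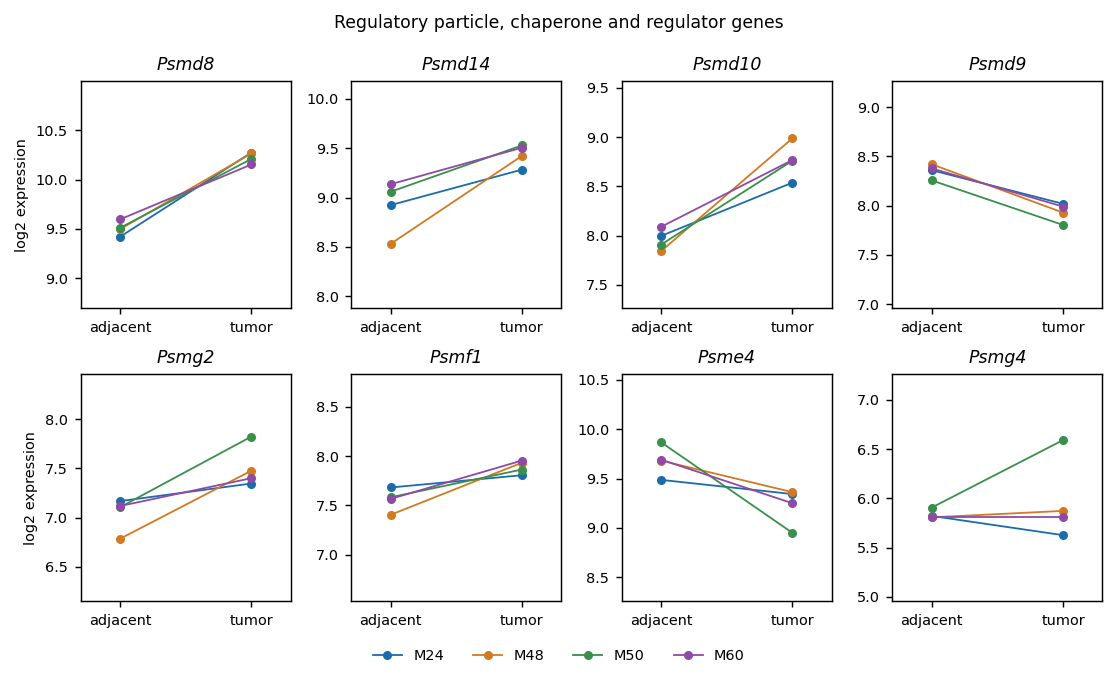
Log2 expression in adjacent liver and tumor of the members outside the catalytic subunits that rose or fell, and of Psmg4. Each line joins the samples of 1 mouse, and all panels span the same range of log2 units. Psmd8, Psmd14 and Psmd10 are higher and Psmd9 is lower in the tumor of all 4 mice, while the lines of Psmg4 run in different directions.

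The subunits known from other tissues were at the low end of the array. Psma8, an alpha subunit of the testis, had a mean level below the filter of 4.60, as had Psmb11, the catalytic subunit of the thymus proteasome. Their levels ran from 3.86 to 4.76 and from 3.74 to 4.49, and neither was tested. With no filter Psma8 had a difference of -0.46 and an adjusted p of 0.0410. Without detection calls, whether such values lie above background was not tested. Psmc3ip, a meiotic recombination gene that was matched by its letters alone, was also below the filter, and Psme3ip1, which encodes a partner of the nuclear PA28, differed by -0.09 (adjusted p 0.458).

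Genes that work with the proteasome were called in both directions at shares near those of all genes. Of 27 listed symbols 20 were measured and tested, 3 rose (15%, against 16.3% of all genes) and 4 fell (20%, against 15.7%), and the median difference was -0.0035. Nfe2l2, which encodes the stress factor NRF2, had adjacent levels of 8.95, 8.63, 8.94 and 8.70 and tumor levels of 9.54, 9.45, 9.24 and 9.59. It rose by 0.65 (SE 0.116, adjusted p 0.00744) without overlap. Nfe2l1, which encodes NRF1, the factor that raises subunit genes together when proteasome activity is short, differed by -0.17 (adjusted p 0.143). Ngly1, the deglycosylase that activates NRF1, fell by 0.47 (SE 0.0813, adjusted p 0.00664). Pomp, the chaperone that closes 20S assembly and favours immunoproteasomes, differed by 0.08 (adjusted p 0.557). Nfe2l2 and Ngly1 were called in all 11 alternatives.

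The other calls in that list were lost under some alternatives. Ecpas, an adaptor that binds the 26S proteasome, fell by 0.39 (adjusted p 0.0204), a call lost without M48, M50 or M60 (up to 0.0757). Zfand5 and Zfand2a, stress-induced proteins that bind the proteasome, rose by 0.31 (0.0220) and 0.62 (0.0393), and each was called in 6 of 11 alternatives. Zfand5 lost its call without M24, M50 or M60, and Zfand2a without M48, M50 or M60. Ubqln4, a shuttle that brings ubiquitinated proteins, fell by 0.34 (0.0286, 8 of 11), and Nploc4, a cofactor of the segregase VCP, by 0.30 (0.0283, 7 of 11). Ubqln4 lost its call without M48, M50 or M60, and Nploc4 with any mouse left out. Vcp itself differed by 0.01 (adjusted p 0.952). Of 6 listed genes that supply or activate ubiquitin 1 was measured with a probe of its own, Uba6, which differed by 0.27 (adjusted p 0.117).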

How the data were processed

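The deposited table holds log2 expression values of 28874 probes on 8 arrays, with 0 missing. MAS5 is named in the submitters' processing notes without a version or role. How background, summarization and normalization were handled is not given in the sources used here. Detection calls and scan dates were not used, so hybridisation batch was not tested. That the scale is log2 was judged from its range, 1.92 to 14.5.

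Probes with 1 gene symbol in the platform annotation (21789 of 23410 annotated) were used, with the highest-mean probe for each gene. The 40% of genes with the lowest mean (below 4.60) were left out. The paired comparison used limma 3.58.1 in R 4.3.3 (lmFit and a trended eBayes), with the mouse as a block because both pieces came from the same animal. Deviations from the group means correlated within a mouse at 0.313, 0.421, 0.0986 and 0.111 (M24, M48, M50, M60). Tests were two-sided, with Benjamini-Hochberg adjustment over 11963 genes. The replicates are separate mice, with 1 array per piece. The procedure was tested on simulated data.

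Alternatives were no block, no filter or a stricter one, quantile normalization, median centring, the mean of all probes, no trend, and each mouse left out. Values on all arrays are given for the catalytic subunits, Psme1, Psme2, the largest rise and fall past the threshold in each subcomplex, and the 3 most variable members; those of Psmd14, Tap1 and Nfe2l2 were added after their values were seen. From each related list up to 4 genes with the smallest p and a preset few were to be named, and others were chosen after their values were seen. The members and lists were chosen with earlier results of these data known. Promoter windows are RefSeq's, build GRCm38.p6.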

Additional observations from a re-analysis of the deposited data

Results flagged for a closer look

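In each group of 4 arrays, the member levels were searched for a sample far from the other 3. A gap between that sample and its nearest neighbour that exceeds Dixon's 95% critical value, as a share of the group's whole range, was reached in 5 of 100 sets, and chance gives about 1 in 20. In tumors, Psmb10 had a gap of 0.842, with M50 at 8.54 and the others between 8.08 and 8.15. Psma6 had a gap of 0.877, with M60 at 10.10 and the others between 9.981 and 9.996. Psmb11 had a gap of 1, with M60 at 3.74 and the other 3 tumors at the identical level of 4.18, near the low end of the array. In adjacent liver, Psmg2 had a gap of 0.840, with M48 at 6.79 and the others between 7.11 and 7.17. Psmg4 had a gap of 0.857, with M50 at 5.91 and the others between 5.81 and 5.82, a distance of about 0.1 log2 units.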

How the results depend on the processing

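With no replicate block, so that the pairing by mouse was not used, 1743 genes rose and 1799 fell over all genes, and 7 and 2 members did; it changed no call of Psmb8, Psmb9 or Psmb10. With each mouse left out in turn, 1238 to 1759 genes rose and 1071 to 1720 fell, and among the members 4 to 6 rose and 1 to 2 fell. Over these fits the difference of Psmb8 ran from 0.60 to 0.92 and lost its call without M60 (adjusted p 0.0533), that of Psmb10 ran from -0.153 to 0.0817, and the change of Psmb10 minus that of Psmb7 from -0.0811 to 0.197, below 0 without M50 in both cases. Psmb10 was -0.0381 after median centring; the median over all tested genes was then -0.06. Over the other tested members, 467 of 482 values kept their side of the threshold or their size, 13 lost a call, 1 gained it (Psmd1 with quantile normalization), 1 moved beyond the spread between mice (Psmd1 after median centring) and 0 of those called changed sign. The causes were not tested. With 4 pairs and 1 array per piece, small differences could be missed, and no probe's signal could be set against background.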
